A study of Homo sapiens with 6 samples.

Results

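Chromosomes 13 and 18 are among the human autosomes with the fewest genes per base, and the accessible regions found on them in leukaemia cells are described here. All peaks whose chromosome was 13 or 18 were taken from both deposited peak lists, with no filter on their values. In the control list they were 7214 of 127153 peaks (5.67%), 4511 on chromosome 13 and 2703 on chromosome 18. In the shHMGA1 list they were 6317 of 112610 peaks (5.61%), 3967 on chromosome 13 and 2350 on chromosome 18. Of the chromosome 18 peaks, 319 control and 270 shHMGA1 peaks had their summit on the short arm (18p), and 2384 and 2080 on the long arm (18q). No peak of either list lay on the short arm of chromosome 13, which consists of repeated and ribosomal DNA. Every chromosome 13 value below is thus one of 13q. Whether reads can be placed on the short arm was not tested, so the absence is not read as closed chromatin.

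The cells were labelled DAMI, an established human leukaemia line grown in RPMI medium with serum, and the disease state was given as MPN/AML. Per the labels, 3 samples were infected with a control lentivirus and 3 with a lentivirus carrying shHMGA1, a short hairpin RNA that silences HMGA1. Both groups therefore carried lentivirus and had the same parental line, and the labels do not say whether the samples of a group were separate cultures. The assay was ATAC-seq, which maps open chromatin by where the transposase Tn5 can insert sequencing adapters, and 1 peak list was deposited per group, with no values per sample. The series' design text also names the SET-2 line, and whether SET-2 libraries entered the lists is not stated. The control group has 1 list and the shHMGA1 group has 1 list, so differences below stand without replicates and without p-values.

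Gene-poor chromosomes hold long stretches of AT-rich DNA that stain dark with Giemsa, replicate late and tend to lie near the nuclear edge, where chromatin is mostly closed. HMGA1 is an architectural chromatin protein whose AT-hooks bind the minor groove of AT-rich DNA. Accessible sites in such stretches are more often distal elements than promoters, since promoters are few.

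The name gene-poor held for both chromosomes in the RefSeq gene table (GRCh38.p14, used for gene numbers only). Chromosome 13 had 338 protein-coding genes and chromosome 18 had 270. Per 1-Mb window that held any gene, these were 3.45 and 3.51 protein-coding genes, the lowest and second lowest of 20 autosomes. The other 18 had 4.97 (chromosome 8) to 25.5 (chromosome 19). These 18, called the comparison autosomes, are chromosomes 1 to 22 without 13 and 18 and without 4 and 9, which the rule of selection left out. Chromosomes 4 and 9 held 99.6 and 97.7 control peaks per Mb, close to the 91.9 of chromosome 21, which was kept.

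Taken whole, neither chromosome was among the autosomes with the fewest peaks per Mb. Densities were counted by summit over the 95.7 Mb of chromosome 13 and the 74.5 Mb of chromosome 18 that lie outside centromeric, variable and stalk bands (hg19). Chromosome 13 held 47.0 control peaks per Mb and 41.3 shHMGA1 peaks per Mb, and the comparison autosomes together held 39.3 and 34.5. That placed chromosome 13 at rank 6 from the top of 20 autosomes in the control list and rank 5 in the shHMGA1 list. Chromosome 18 held 36.1 and 31.4 peaks per Mb, rank 11 of 20 in both lists. Single comparison autosomes ran from 20.9 control peaks per Mb on chromosome 22 to 91.9 on chromosome 21. The DNA copy number of the chromosomes was not examined here.

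The arms of chromosome 18 differed in density. On 18p there were 20.6 control and 17.5 shHMGA1 peaks per Mb, against 40.1 and 35.0 on 18q. Relative to the comparison autosomes these were 0.526 and 0.506 times the density on 18p, and 1.02 and 1.01 times on 18q. Covered bases showed the same order, with peaks over 1.33% of 18p and 2.33% of 18q in the control list, and 1.12% and 2.04% in the shHMGA1 list. On chromosome 13 peaks covered 2.77% and 2.49% of the sequence, and on the comparison autosomes 2.53% and 2.28%.

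**Figure D1:**
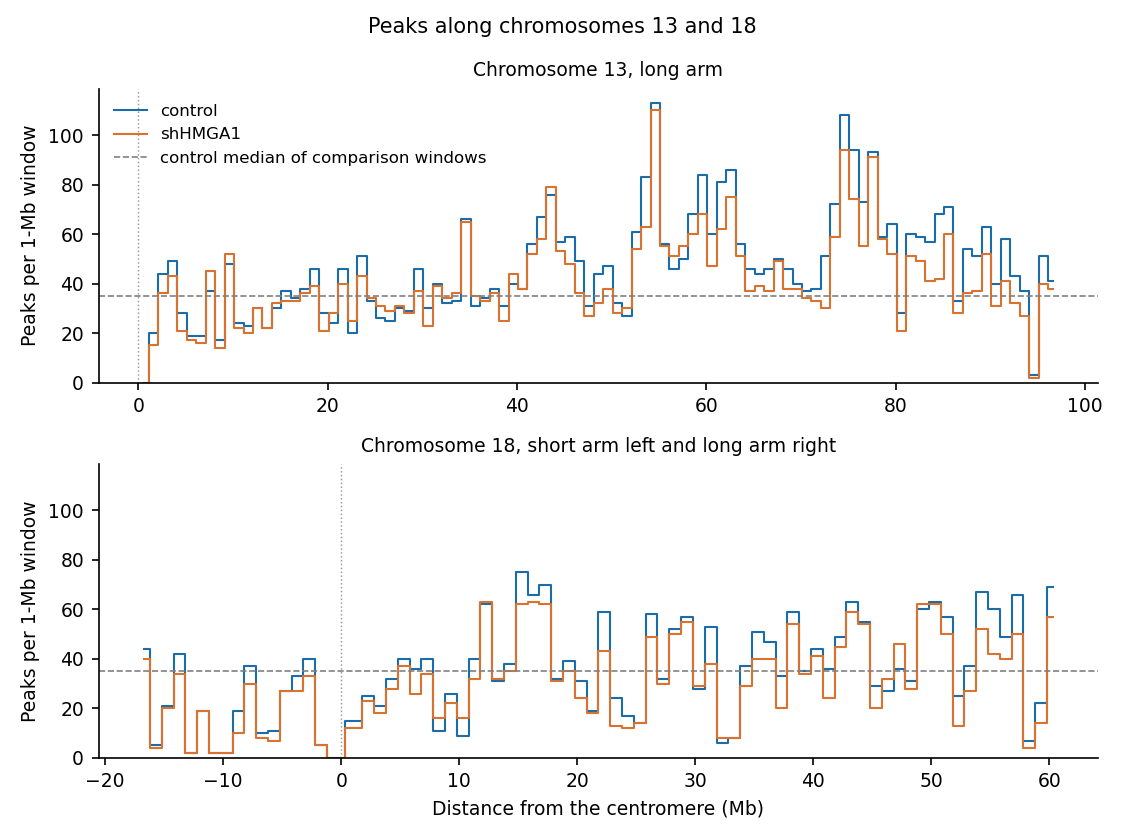
Peaks in 1-Mb windows (vertical axis) against distance from the centromere in Mb (horizontal axis), for 13q and for both arms of chromosome 18, with control in blue and shHMGA1 in orange; the dashed line is the median of 35 control peaks in comparison windows and the dotted line the centromere. Windows of the first 40 Mb of 13q lie near that line, later windows reach 113 control peaks, and several 18p windows hold 2 peaks.

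In 1-Mb windows the median was 46 control and 38 shHMGA1 peaks on chromosome 13 (95 windows), 36 and 30.5 on chromosome 18 (74 windows), and 35 and 31 on the comparison autosomes (2163 windows). Chromosome 13 was evenly filled at the low end, since only 1 of its windows held under 10 control peaks (1.05%, against 7.21% of comparison windows). On 18p, 4 of 15 windows held under 10 control peaks, and on 18q 4 of 59. Windows with at least 60 control peaks made up 22.1% of chromosome 13, 14.9% of chromosome 18 and 17.6% of the comparison windows. No window of 18p reached that number.

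The densest windows of chromosome 13 lay in its dark-staining bands. The window from 72000001 to 73000000 (13q21.33) held 113 control and 110 shHMGA1 peaks, and the neighbouring windows from 92000001 and from 93000001 (13q31.3) held 108 and 94 control peaks, with 94 and 74 in the shHMGA1 list. The sparsest were the window from 112000001 (13q34), with 3 and 2 peaks, the one from 26000001 (13q12.13), with 17 and 14, and the one from 23000001 (13q12.12), with 19 and 17. On chromosome 18 the densest windows began at 32000001 (18q12.1; 75 control and 62 shHMGA1 peaks), 34000001 (18q12.2; 70 and 62) and 77000001 (18q23; 69 and 57). The 3 sparsest began at 4000001, 6000001 and 7000001, all on 18p, with 2 peaks in each list.

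Spacing followed these densities. The median distance between neighbouring summits was 11127.5 bp in control and 13536.5 bp in shHMGA1 cells on chromosome 13, and 12267 and 14618.5 bp on chromosome 18. The medians of single comparison autosomes ran from 4505 to 19034 bp in the control list, so both chromosomes lay inside that range. On 18p the medians were 15956.5 and 20323 bp, and 11.9% of control distances exceeded 100 kb, against 4.15% on 18q and 2.48% on chromosome 13. Close pairs were as common as elsewhere: 15.6% of control distances on chromosome 13 and 15.5% on chromosome 18 were under 2 kb, and 16.5% on the comparison autosomes.

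Long intervals without a peak of either list were rare on 13q and frequent on 18p. Of intervals of at least 300 kb outside centromeric, variable and stalk bands, chromosome 13 had 2, 18p had 7 and 18q had 6. Per 100 Mb these were 2.09, 45.5 and 10.2, with 18.1 on the comparison autosomes. The longest on chromosome 18 ran from 7452607 to 8389752 (937 kb, 18p11.23), from 4106704 to 5023410 (917 kb, 18p11.31) and from 10787592 to 11519190 (732 kb, 18p11.21). On chromosome 13 they ran from 112081682 to 112950163 (868 kb, 13q34) and from 22562280 to 22931320 (369 kb, 13q12.11). Whether these intervals hold sequence that reads can be placed on was not tested.

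The peaks of both chromosomes, each taken whole, were weak in their lists, but those of 18p were not. The strength of a peak was read from column 7, the authors' value for the area that a peak encloses under its significance track. It grows with width and height and was compared only within a list. The median area on chromosome 13 was 477 in the control list (quartiles 294 and 1014), the lowest of 20 autosomes, and 512 in the shHMGA1 list (297 and 1086), the second lowest after chromosome 21. Chromosome 18 had medians of 561 (quartiles 320 and 1223) and 572 (319 and 1250). The comparison autosomes had 596 and 617. Within chromosome 18 the sparse short arm had the larger areas, with medians of 622 and 647 against 553 and 562 on 18q. The smallest area was 200 in both deposited lists, and no further cutoff on area was added here.

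Strong peaks made up a small share of the peaks of each chromosome taken whole. Peaks of a list were ranked by area and split into deciles, 10 classes of the same size. In the strongest decile were 308 of the control peaks on chromosome 13 (6.83%, 95% Wilson interval 6.13 to 7.60) and 222 on chromosome 18 (8.21%, interval 7.24 to 9.31), where the comparison autosomes had 10.6%. In the shHMGA1 list it was 286 peaks (7.21%, interval 6.45 to 8.06) and 197 peaks (8.38%, interval 7.33 to 9.57), against 10.8%. On 18p the share was higher, 13.5% in control (43 peaks, interval 10.2 to 17.7) and 13.3% in shHMGA1 (36 peaks, 9.79 to 17.9). Both of these intervals held the comparison share. On 18q it was 7.51% and 7.74%. By area chromosome 13 had the lowest share of 20 autosomes in both lists and chromosome 18 was at rank 3 from the lowest. When strength was taken as the summit −log10 p, chromosomes 13 and 18 had ranks 2 and 4 from the lowest in the control list, and 3 and 6 in the shHMGA1 list. These intervals cover counting error only and treat neighbouring peaks as independent, which they are not.

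**Figure D2:**
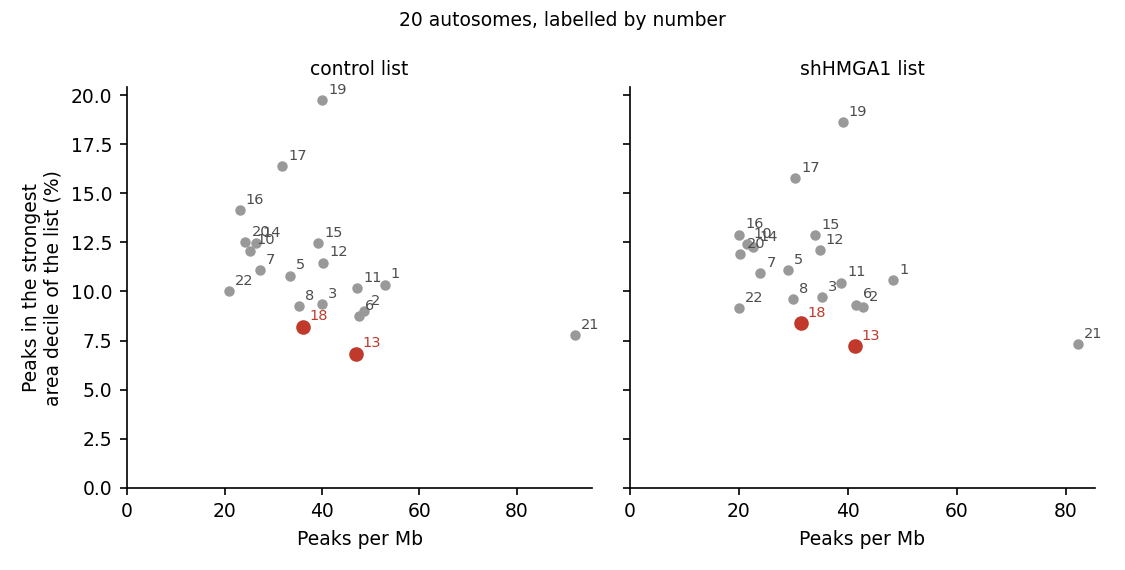
Share of peaks in the strongest area decile of the list in percent (vertical axis) against peaks per Mb (horizontal axis) for 20 autosomes, control list left and shHMGA1 list right, with chromosomes 13 and 18 in red. Chromosome 13 is the lowest point of both panels (6.83% and 7.21%) at a density above that of most autosomes.

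**Figure D3:**
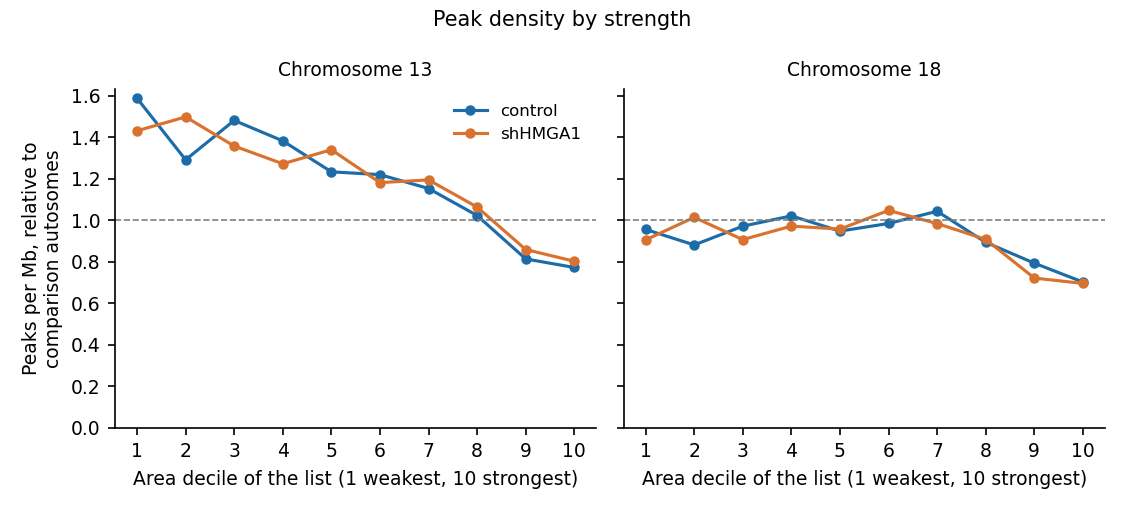
Peaks per Mb relative to the comparison autosomes (vertical axis) by area decile of the list (horizontal axis, 1 weakest and 10 strongest), for chromosome 13 left and chromosome 18 right, control in blue and shHMGA1 in orange. On chromosome 13 the value goes from 1.59 in the weakest control decile to 0.773 in the strongest.

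The higher density of chromosome 13 was one of weak peaks. In the weakest control decile it held 6.33 peaks per Mb, 1.59 times the comparison value, and in the seventh decile 4.42 per Mb, 1.15 times. In the ninth and the strongest deciles it held 3.17 and 3.22 per Mb, 0.814 and 0.773 times. The shHMGA1 list gave 1.43 times in its weakest decile and 0.803 times in its strongest. Keeping only peaks at or above the joined median summit −log10 p of 5.24 turned the order in the control list. The density of chromosome 13 was then 0.955 times that of the comparison autosomes, instead of 1.20 times. In the shHMGA1 list it went from 1.20 to 1.02 times, so the order did not turn there. Chromosome 18 lay near the comparison value through the seventh decile, between 0.882 and 1.04 times in the control list, and at 0.703 times in the strongest. Per Mb, the strongest decile numbered 3.22 control peaks on chromosome 13 and 2.93 on chromosome 18, against 4.16 on the comparison autosomes. Single comparison autosomes ran from 2.13 (chromosome 22) to 8.32 (chromosome 19). From the lowest of 20, chromosome 13 had rank 7 in control and 9 in shHMGA1, and chromosome 18 ranks 2 and 4.

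Wide peaks were also few. The median width was 475 bp in the control and 492 bp in the shHMGA1 list on chromosome 13, and 444 and 455 bp on chromosome 18, with 492 and 506 bp on the comparison autosomes. Peaks of 1 kb or more made up 12.3% and 12.8% on chromosome 13 and 13.2% and 13.1% on chromosome 18, the lowest and second lowest shares of 20 autosomes in both lists. On the comparison autosomes the shares were 16.8% and 17.6%. The arms of chromosome 18 differed here too, with 19.4% of control peaks on 18p at 1 kb or more and 12.3% on 18q. In the shHMGA1 list these shares were 15.9% and 12.8%, so 18p was then below the comparison autosomes. Median widths went the other way, with 420 and 438 bp on 18p and 448.5 and 456.5 bp on 18q. Peaks of 3 kb or more numbered 16 control and 12 shHMGA1 on chromosome 13, and 13 and 10 on chromosome 18.

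Within both chromosomes strong peaks were fewer per Mb in the darker bands, which was also so on the comparison autosomes. Some of the strongest chromosome 13 sites named below still lay in dark bands, among them 13q31.3 and 13q21.33. In the Giemsa-negative bands, where genes concentrate, chromosome 13 held 43.1 control peaks per Mb, of which 3.95 per Mb were in the strongest decile. In its darker Giemsa-positive bands (the 2 darkest classes) it held more peaks, 55.4 per Mb, and fewer strong ones, 1.99 per Mb. The median control area was 542 in the first and 418 in the second. For chromosome 18 the total was 39.6 per Mb in Giemsa-negative and 33.2 in darker bands, and the strongest decile gave 4.01 and 1.33 per Mb. On the comparison autosomes the totals were 41.7 and 39.3 per Mb, and the strongest decile gave 5.19 and 2.62. Darker bands made up 37.1 Mb of chromosome 13 and 24.8 Mb of chromosome 18.

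The strongest single sites were in both lists, as was every peak of the strongest decile on the comparison autosomes. On chromosome 13 the largest area belonged to a peak from 111364356 to 111368842 (hg19, 13q34), 4487 bp wide, with an area of 35219 in control, rank 69 of that list. Its shHMGA1 counterpart was 4460 bp wide with an area of 32837, rank 77. The next control sites by area were those from 74706010 to 74710909 (13q22.1), from 91998860 to 92001850 (13q31.3), from 88322398 to 88327205 (13q31.2) and from 72437937 to 72441901 (13q21.33). Their areas were 31470, 28584, 24988 and 23780, and each had exactly 1 shHMGA1 peak, ranked 91, 132, 154 and 172 in its list. One of the 5 largest shHMGA1 peaks, from 80912799 to 80918007 (13q31.1, 5209 bp, area 30196), overlapped 2 control peaks, the longer of which was 3307 bp wide with an area of 22895. That site was thus 1 peak in one list and 2 in the other.

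Ranked by summit instead of area, chromosome 13 held the second most significant peak of either list. It was narrow, 318 bp from 110076425 to 110076742 (13q33.3) in control, with a summit −log10 p of 57.3 and an area per base of 46.6. In the shHMGA1 list it was 342 bp wide with a summit value of 56.0. The next chromosome 13 summits, at 22.8 and 22.6 in control, ranked 225 and 243. This peak was singled out after its values were seen, and whether reads can be placed uniquely on it was not tested.

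Chromosome 18 had its 2 strongest peaks at the short-arm end and beside the centromere. The peak from 105525 to 112569 (18p11.32) was 7045 bp wide with an area of 95890 in control, rank 11, and 7106 bp with 96412 in shHMGA1, also rank 11. The peak from 18514015 to 18520393 (18q11.1, a centromeric band) was 6379 bp wide with an area of 82076, rank 12, and 6380 bp with 87556, rank 15. The remaining large control sites were those from 48721642 to 48724992 (18q21.2; area 23102), from 60189281 to 60192359 (18q21.33; 22475) and from 60381727 to 60385056 (18q21.33; 20907). Each of these 5 sites overlapped exactly 1 shHMGA1 peak. Of the 100 largest control peaks, 95 on chromosome 13 and 93 on chromosome 18 overlapped one of the 100 largest shHMGA1 peaks of that chromosome. The same count was not made on the comparison autosomes. No gene was assigned to any of the named sites, and whether reads can be placed uniquely on them was not tested.

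As deposited, the shHMGA1 list was shorter on both chromosomes, by close to the proportion seen elsewhere. Chromosome 13 had 544 fewer peaks (12.1% fewer, ratio 0.879) and chromosome 18 had 353 fewer (13.1% fewer, 0.869). The comparison autosomes together had a ratio of 0.878, and single ones ran from 0.819 (chromosome 11) to 0.954 (chromosome 17). The ratio was 0.846 on 18p and 0.872 on 18q. Among windows with at least 20 control peaks, 71 of 91 on chromosome 13 and 51 of 58 on chromosome 18 held fewer shHMGA1 than control peaks, where the comparison share was 79.1%. The ratio was under 0.8 in 21 and 16 of them, against 25.2% of comparison windows. These counts lie near the background. With both lists cut to the 56305 peaks of highest summit significance, which sets the whole-list ratio to 1, chromosome 13 had a ratio of 1.08 and chromosome 18 one of 0.992. The comparison autosomes then had 0.995, so chromosome 13 was above them at this cut.

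Sharing was read at 1 bp of overlap. On chromosome 13, 1358 of the control peaks overlapped no shHMGA1 peak (30.1%, where the whole list has 24.9% and the comparison autosomes 25.8%). On chromosome 18 it was 726 (26.9%). Of the shHMGA1 peaks, 814 on chromosome 13 (20.5%) and 353 on chromosome 18 (15.0%) overlapped no control peak, where the whole list has 14.8% and the comparison autosomes 15.3%. The shared part of chromosome 13 was thus 69.9% of control peaks (Wilson interval 68.5 to 71.2) and 79.5% of shHMGA1 peaks (78.2 to 80.7). Among 20 autosomes only chromosome 21 had lower shares in either list. Chromosome 18 stood seventh from the lowest in both, at 73.1% (71.4 to 74.8) and 85.0% (83.5 to 86.4). On 18p 74.3% of control and 89.3% of shHMGA1 peaks were shared, and on 18q 73.0% and 84.4%.

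**Figure D4:**
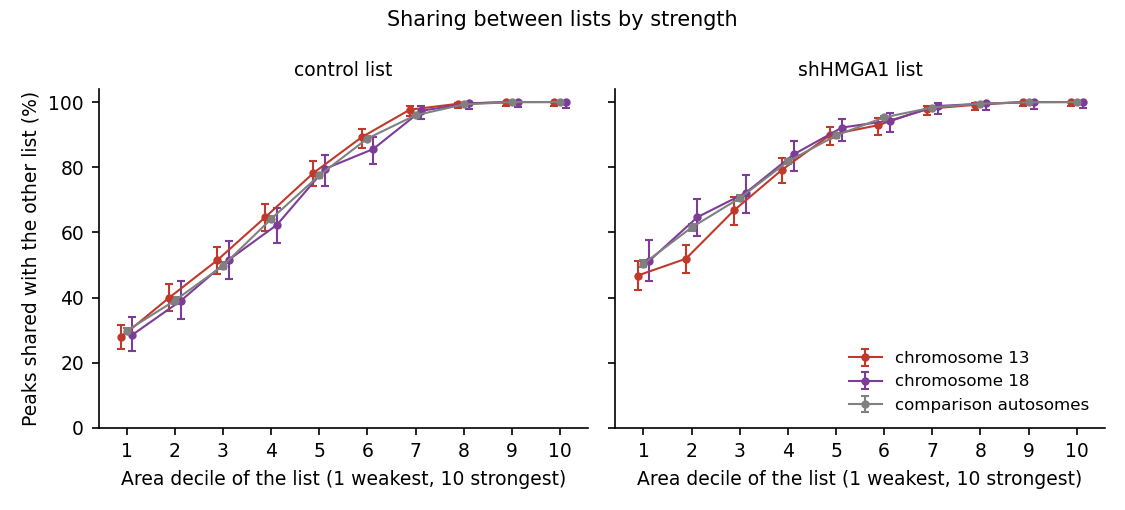
Percent of peaks that overlap a peak of the other list by at least 1 bp (vertical axis) by area decile (horizontal axis), control list left and shHMGA1 list right, with 95% Wilson intervals, for chromosome 13, chromosome 18 and the comparison autosomes. All lines climb from the weakest decile to 100% in the strongest; the widest gap is in the second shHMGA1 decile, with 51.9% on chromosome 13 and 61.5% on the comparison autosomes.

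Sharing climbed with strength on both chromosomes. In the weakest control decile 27.8% of chromosome 13 peaks and 28.6% of chromosome 18 peaks were shared, against 29.8% on the comparison autosomes, and in the sixth decile 89.2%, 85.6% and 88.8%. In the strongest decile no control peak was unshared on chromosome 13 (0 of 308, which allows up to 0.974%) or on chromosome 18 (0 of 222, up to 1.35%). The same held on the comparison autosomes (0 of 9232). Had each decile been shared at the comparison rate, 69.5% of control peaks on chromosome 13 and 73.2% on chromosome 18 would have been shared, 0.39 points below and 0.09 points above what was counted. In the shHMGA1 list chromosome 13 remained 2.62 points under the rate at equal strength (79.5% counted against 82.1%), and chromosome 18 was 1.03 points above. Single comparison autosomes departed by -3.93 (chromosome 1) to 4.89 points (chromosome 14) in that list, so both values lay inside that range.

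Unshared peaks were small, as they were on the comparison autosomes. On chromosome 13 they had a median area of 277 in control and 272 in shHMGA1, against 701 and 653 for the shared ones. On chromosome 18 the values were 291 and 270, against 820 and 693. The comparison autosomes had 288 and 275, against 884 and 770. Neither list holds a peak with an area under 200. An unshared peak thus lacks a listed counterpart, and signal below that area could not be seen. The largest control-only site on chromosome 13 was the peak from 61419412 to 61420344 (13q21.2; area 1321, rank 34381 of the list), 2210 bp from the nearest shHMGA1 peak. After it came the peak from 113187384 to 113188008 (13q34; 1208), 22818 bp away. Further control-only sites began at 60070355, 94854641 and 58838154, with areas of 1005, 954 and 954. The largest shHMGA1-only site ran from 51721957 to 51723357 (13q14.3; 1777, rank 24237), 21804 bp from a control peak. The next began at 32472189 (13q13.1; 1464), 48795273 (13q14.2; 1311), 25556143 (13q12.13; 1091) and 84089132 (13q31.1; 1070).

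The largest control-only site of chromosome 18 ran from 58192899 to 58193406 (18q21.32; area 1229, rank 36560), 17551 bp from an shHMGA1 peak. The second, from 33441865 to 33442390 (18q12.2; 1163), had the higher summit −log10 p, 8.26 against 7.68, and lay 51881 bp away. The others began at 57578436 (18q21.32; 1031), 77157314 (18q23; 965) and 8835087 (18p11.22; 941). Of these, the 18q23 peak lay only 102 bp from an shHMGA1 peak, and the 18p11.22 peak 76494 bp from one. The largest shHMGA1-only site ran from 63273918 to 63274870 (18q22.1; 1371, rank 30328), 39034 bp from a control peak. It was followed by sites from 26589354 (18q12.1; 1072), 44351800 (18q21.1; 1008), 68919533 (18q22.3; 850) and 42155948 (18q12.3; 814).

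Peaks that matched one to one had nearly the same median width in both lists. The median log2 width ratio, shHMGA1 over control, was -0.003 over 2936 pairs on chromosome 13 and -0.04 over 1857 pairs on chromosome 18. The shHMGA1 peak was the wider in 49.1% of the pairs on chromosome 13 (Wilson interval 47.3 to 51.0) and in 42.3% on chromosome 18 (40.1 to 44.6). On the comparison autosomes it was the wider in 44.6% (44.3 to 45.0). Single comparison autosomes ran from 36.9% (chromosome 20) to 56.0% (chromosome 22), so both chromosomes lay inside that spread. The summits of a pair lay a median of 18 and 17 bp apart.

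Of the unshared peaks, 62.5% were control-only on chromosome 13 (exact Clopper-Pearson interval 60.4 to 64.6), 67.3% on chromosome 18 (64.4 to 70.1) and 65.7% on the comparison autosomes (65.2 to 66.2). On 18p 82 peaks were control-only and 29 shHMGA1-only (73.9%, interval 64.7 to 81.8), and on 18q 644 and 324 (66.5%, 63.5 to 69.5). With equal numbers of peaks from each list the share on chromosome 13 turned to 39.3%, while it was 52.5% on chromosome 18.

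The difference between the lists was uneven along 13q. In its first 40 Mb from the centromere (17900001 to 57900000) there were 1293 control peaks and 1239 shHMGA1 peaks (ratio 0.958). Unshared peaks there split into 279 of the control and 236 of the shHMGA1 list (54.2% control-only, exact interval 49.8 to 58.5). In the next 40 Mb the lists held 2382 and 2080 peaks (0.873; 62.0% control-only, 59.3 to 64.6). In the remaining part to the end at 115169878 they held 836 and 648 peaks (0.775), and 276 against 85 were unshared (76.5%, 71.7 to 80.7). These parts were drawn after the pattern was seen. The first part also had a higher ratio than the last above the joined median summit value (0.986 and 0.852), with equal numbers (1.13 and 0.967) and with peaks within 150 bp merged (0.978 and 0.792).

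**Figure D5:**
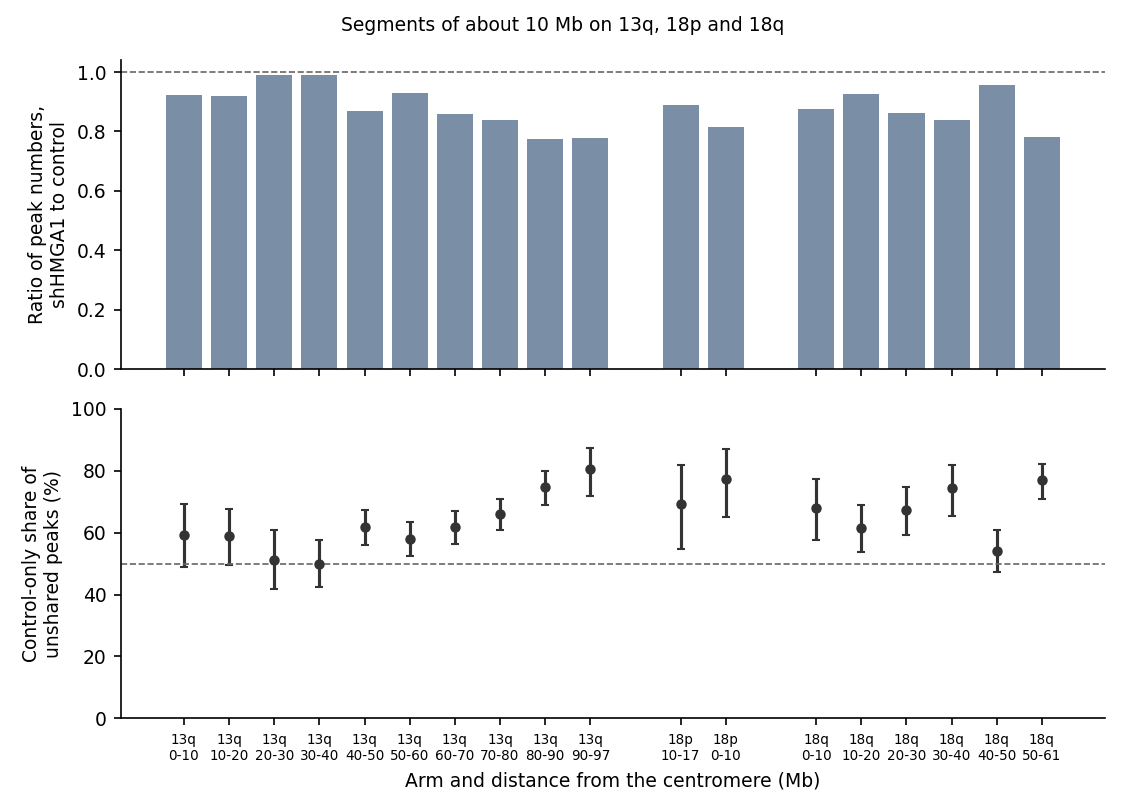
Ratio of shHMGA1 to control peak numbers (top) and control-only share of unshared peaks in percent with exact 95% intervals (bottom) for segments of about 10 Mb, by arm and distance from the centromere in Mb (horizontal axis); dashed lines mark equal numbers in both lists. On 13q the ratio lies at 0.991 from 20 to 30 Mb and at 0.774 from 80 to 90 Mb, and the control-only share at 51.3% and 74.7%.

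Peak strength did not run along 13q in that order. The middle part was the densest, with 59.5 control peaks per Mb against 32.3 in the first and 48.4 in the last. It also had the weakest peaks, with a median control area of 432 against 543 and 552, and with 4.03% of control peaks in the strongest decile against 10.9% and 8.49%. Over 91 windows of 13q with at least 20 control peaks, the ratio and the distance from the centromere had a Spearman rho of -0.49. Over the long or short arms of the comparison autosomes with at least 30 such windows (21 arms) the same rho ran from -0.63 to 0.55 with a median of -0.02, and it was -0.16 over 18q. Windows of a chromosome share their library and their neighbours, so these are descriptions. For the ratio and the distance, 2 comparison arms had a lower rho than 13q. Over the same windows of 13q, control density rose with distance (rho 0.52) and the ratio fell with control density (rho -0.35). The medians of the comparison arms were 0.11 and -0.10. Whether the ratio goes with distance or with density was not tested.

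The windows with the lowest ratios on chromosome 13 were those from 90000001 (13q31.3; 51 control and 30 shHMGA1 peaks, 0.588), from 102000001 (13q33.1; 68 and 42, 0.618) and from 105000001 (13q33.2; 54 and 36, 0.667). The highest were those from 40000001 (13q14.11; 20 and 25, 1.25), from 25000001 (13q12.13; 37 and 45, 1.22) and from 43000001 (13q14.11; 26 and 31, 1.19). All 3 of the high ones lay in the first 40 Mb. On chromosome 18 the lowest were those from 69000001 (18q22.3; 25 and 13, 0.520), from 40000001 (18q12.3; 24 and 13, 0.542) and from 54000001 (18q21.31; 33 and 20, 0.606). The highest were those from 64000001 (18q22.1; 36 and 46, 1.28), from 63000001 (18q22.1; 27 and 32, 1.19) and from 47000001 (18q21.1; 28 and 29, 1.04). They were picked for their ratios.

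Along 18q the ratio did not follow the distance from the centromere. It was 0.876 in the first 10 Mb, 0.927 from 10 to 20 Mb, 0.955 from 40 to 50 Mb and 0.781 in the last segment, where 174 control and 52 shHMGA1 peaks were unshared (77.0% control-only, exact interval 70.9 to 82.3). The segment from 40 to 50 Mb had 119 and 101 (54.1%, 47.3 to 60.8). The comparison autosomes had 65.7% control-only. In the last segment 66.0% of control and 87.0% of shHMGA1 peaks were shared, and 73.0% and 76.0% from 40 to 50 Mb. Shared peaks made up 74.2% and 84.7% on the comparison autosomes. On 18p the ratio was 0.814 in the 10 Mb next to the centromere and 0.890 in the rest.

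By band, 22 of 27 bands with at least 50 control peaks on chromosome 13 and 16 of 17 on chromosome 18 had fewer shHMGA1 peaks (81.5% and 94.1%). Among bands of the comparison autosomes the share was 87.6%, so both counts lie near the background. The lowest ratio on chromosome 13 was that of 13q33.2 (109 control and 76 shHMGA1 peaks, 0.697). There 43 control (39.4%) and 9 shHMGA1 peaks (11.8%) were unshared, against 25.8% and 15.3% on the comparison autosomes. The neighbouring bands 13q33.1 and 13q33.3 had ratios of 0.742 and 0.756. The highest was that of 13q22.1 (90 and 98, 1.09). Chromosome 18 ranged from 18q22.3 (200 and 143, 0.715) to 18q22.1 (186 and 195, 1.05), which is separated from it by a single band.

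Bands of well-known genes are given next as landmarks. A count is that of the entire band, and no value of a gene is meant. Unshared counts are to be read against 24.9% of control and 14.8% of shHMGA1 peaks in the whole lists, and control-only shares against 65.7% on the comparison autosomes. The band of FLT3, a receptor tyrosine kinase often mutated in acute myeloid leukaemia, and of the homeobox gene CDX2 (13q12.2) held 32 control and 30 shHMGA1 peaks. That of BRCA2, which acts in repair of DNA breaks (13q13.1), held 64 and 62, and that of the forkhead factor FOXO1 (13q14.11) held 160 and 167. The band of LCP1, which encodes the actin bundler L-plastin of blood cells (13q14.13), held 58 and 56. In these 4 bands the lists were close in number.

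The band of the cell cycle inhibitor RB1 (13q14.2) held 134 control and 119 shHMGA1 peaks, and 34 and 21 of these were unshared (25.4% and 17.6%), near the whole-list shares. KLF5, a zinc-finger transcription factor, lies in 13q22.1, the band with the highest ratio among those with at least 50 control peaks. The band of MIR17HG, host of the miR-17 to miR-92 cluster (13q31.3), was the densest of the named bands, at 79.6 control and 62.4 shHMGA1 peaks per Mb. Its 398 control and 312 shHMGA1 peaks (0.784) included 160 and 72 unshared ones (40.2% and 23.1%). The band of the insulin receptor substrate gene IRS2 (13q34) held 172 and 141 peaks (0.820).

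On chromosome 18 the band of TYMS, the thymidylate synthase gene, and of SMCHD1, a chromatin protein of the inactive X (18p11.32), held 65 control and 61 shHMGA1 peaks. The band of GATA6 (18q11.2), an endodermal and cardiac transcription factor, held 194 and 166. The band of SETBP1, which is mutated in some myeloid neoplasms (18q12.3), held 180 and 145 (0.806), with 65 control-only and 26 shHMGA1-only peaks (36.1% and 17.9%). That of SMAD4, the shared mediator of TGF-beta signalling, and of the bHLH factor TCF4 (18q21.2) held 186 and 150 (0.806). The bands of MALT1, a paracaspase of NF-kappaB signalling (18q21.32), and of BCL2, the inhibitor of apoptosis (18q21.33), held 109 and 93 and 151 and 139. The band of NFATC1, a calcium-regulated transcription factor (18q23), held 210 and 165 (0.786), and 61 against 10 of these were unshared (29.0% and 6.06%). That made 85.9% control-only (exact interval 75.6 to 93.0), against 65.7% on the comparison autosomes. Among the bands of these 18 genes this share was the highest.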

How the data were processed

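ATAC-seq peak lists of 2 groups of 3 samples were used, 1 list per group, assigned from the file names. Per the submitters' processing notes, the authors called peaks with Genrich on hg19. Version, settings, aligner and pooling of samples were not given in the sources used here. The deposited positions and summit offsets are whole bases. The deposited signal (column 7) is an area under the significance curve, and significance at the summit was deposited as −log10 p; the deposited q-value column is -1. Read depth is unknown.

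Peaks were assigned by summit to the hg19 bands shipped with the R package circlize. Overlap was computed in Python 3.11.15 (numpy 2.4.6, pandas 2.3.3, scipy 1.17.1), checked on simulated lists and against bedtools 2.31.1; figures were drawn with matplotlib 3.10.9. No test was run between 1 list and 1 list. Sites were named by rule: on each chromosome the 5 largest areas and 5 largest unshared areas per list, 3 extreme windows each way, and the longest peak-free intervals. Gene bands were listed by hand. The members, lists and rules were chosen with earlier results of these data known. No hg19 sequence or gene annotation was used here. Alternatives were overlap rules, stricter or equal lists, merging, other denominators, comparison sets and strength measures.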

Additional observations from a re-analysis of the deposited data

How the results depend on the processing

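No paired analysis was possible because the deposited lists, 1 per group, carry no values per sample; leaving out a replicate was likewise not possible. Of 200 alternative values, 111 moved by less than their error. In all, 16 crossed to the other side of 1, 50% or 0: 5 from values whose interval excluded that reference, and 11 from values whose interval held it. Of the 11, 8 were relative densities of 18q, reported at 1.02 and 1.01. All alternatives on the first and last part of 13q, those without chromosome 21 and those without centromeric, variable and stalk bands were chosen after seeing the data. The cause of a change was not tested.

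Above the joined median summit −log10 p of 5.24, the relative density of chromosome 13 was 0.955 in control, on the other side of 1, and 1.02 in shHMGA1; it was 0.980 in control and 0.988 in shHMGA1 on 18q, both on the other side of 1, and 0.572 on 18p in shHMGA1. The ratio of peak numbers on chromosome 13 was 0.938, against 0.881 on the comparison autosomes, and its control-only share was 58.8%. Control sharing was 79.7% on chromosome 13, 79.1% on chromosome 18, 81.7% on 18p and 78.7% on 18q, and shHMGA1 sharing 84.9%, 89.9%, 92.7% and 89.5%. On the comparison autosomes control and shHMGA1 sharing was 79.2% and 90.0%. Median widths in control and shHMGA1 were 625 and 634 bp on chromosome 13 and 582 and 596 bp on chromosome 18, median areas 1167 and 1200, and 1152 and 1164, and median summit distances 25771 and 27526 bp, and 23684.5 and 26394 bp.

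With equal numbers of peaks (56305 per list), the ratio turned to 1.08 on chromosome 13, and was 0.992 on chromosome 18, 0.997 on 18q, and 1.13 (also past 1) and 0.967 in the first and last part of 13q. Relative density turned to 0.940 on chromosome 13 in control, with 1.02 in shHMGA1 and 0.590 on 18p in control, and crossed to 0.985 and 0.987 on 18q. Control sharing was 85.5% on chromosome 13, 84.3% on chromosome 18, 85.4% on 18p and 84.1% on 18q. On the comparison autosomes it was 85.0%. The shHMGA1 sharing was 79.3% on chromosome 13 and 85.6% on chromosome 18, against 85.9% on the comparison autosomes. The control-only share turned to 39.3% on chromosome 13, and was 52.5% on chromosome 18, 58.1% on 18p, 51.8% on 18q, and 32.2% (past 50%) and 56.4% in the first and last part of 13q.

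With chromosomes 4 and 9 among the comparison autosomes, relative density in control and shHMGA1 was 1.01 and 0.998 on chromosome 13 (the second on the other side of 1), 0.773 and 0.757 on chromosome 18, 0.442 and 0.422 on 18p, and 0.859 and 0.845 on 18q (both past 1). Over full chromosome length it was 1.06 and 1.06 on chromosome 13. In covered bases it was 1.10 and 1.09 on chromosome 13, 0.842 and 0.813 on chromosome 18, with 0.924 and 0.896 for 18q (both past 1).

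At a reciprocal overlap of 50%, sharing on chromosome 18 in control went from -0.09 to 0.32 points relative to the comparison rate at equal strength. Control and shHMGA1 sharing was then 58.9% and 67.0% on chromosome 13, 62.2% and 71.6% on chromosome 18, 64.6% and 76.3% on 18p, and 61.9% and 71.0% on 18q. On the comparison autosomes it was 63.3% and 72.0%. Control-only shares were then 58.6%, 60.4%, 63.8% and 60.1%, and 67.7% in the last part of 13q. Within 500 bp, sharing was 72.9% and 81.1% on chromosome 13, 76.3% and 86.5% on chromosome 18, with 76.1% and 86.0% for 18q. The comparison autosomes then had 77.2% and 86.5%. With peaks within 150 bp merged, chromosome 13 had a median control width of 490 bp and a summit distance of 11975 bp. The strongest decile taken by summit significance held 8.003% and 8.85% of chromosome 13 and 9.95% and 10.3% of chromosome 18, and by area per base 8.34% and 9.48%, and 10.7% and 10.8%. Read depth is unknown, so which weak peaks each list could have found was not tested.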
